A study of Homo sapiens with 16 samples.

Results

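The change of the nuclear over cytosol balance was described gene by gene in H1299 cells, a non-small cell lung carcinoma line, after overexpression of FLII. The cells had been transfected with the plasmid pCMV-N-Flag-FLII or with the empty plasmid pCMV-N-Flag, using Lipofectamine 2000, and both groups were at passage 15 to 18. PolyA RNA was sequenced from the cytosol and from the nuclei of each group, with 1 library in each of the 4 groups. For each gene the log2 ratio of nuclear over cytosol reads was taken in each group, and the vector value was subtracted from the FLII overexpression value. A change above 0 therefore means relatively more nuclear and less cytosol RNA after FLII overexpression. Genes were kept with at least 100 reads summed over the cytosol pair and over the nuclear pair, and with a mean level in HBE mRNA less than 5 times that in H1299 mRNA, in reads scaled to the library total (CPM). This kept 8048 of the 23709 genes in the files. HBE is labelled as a lung epithelial line. It had been stably transduced by lentivirus with a hairpin RNA that targets FLII, or with a control the labels call NC, and was used here for comparison only.

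Messenger RNA is made and spliced in the nucleus and then exported through the nuclear pores, bound by export factors such as the TREX complex and NXF1. The nuclear share of a transcript thus depends on how fast it is made, processed, exported and, in the cytosol, degraded. FLII (flightless I) is an actin-binding protein of the gelsolin family that is found in both the cytosol and the nucleus. In steady-state RNA, transcripts with low and high content of the bases G and C are known to differ in localisation, stability and codon use, and GC content is also known to affect amplification and sequencing.

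FLII itself checked the labels. Its reads numbered 2829 in vector cytosol, 5713 in FLII overexpression cytosol, 1855 in vector nuclear and 7074 in FLII overexpression nuclear RNA. In CPM this was 2.99 times as much in cytosol and 3.73 times as much in nuclear RNA, and 4.37 times as much in mRNA. Reads of the plasmid transcript and of the cells' own gene cannot be told apart in these counts. In HBE, FLII was 7.61 times lower in cytosol, 7.70 times lower in nuclear RNA and 5.48 times lower in mRNA after knockdown. The 4 libraries of ribosome-nascent chain complex RNA were not used, since FLII was 15.9 times lower in CPM in the library labelled H1299 FLII overexpression than in the vector library. The log2 nuclear over cytosol ratio of FLII was -0.38 with vector and -0.21 with FLII overexpression, a change of 0.17 (95% interval 0.07 to 0.26).

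The 4 libraries held 6243700 to 9259569 reads assigned to genes. The nuclear RNAs MALAT1 and NEAT1 had log2 nuclear over cytosol ratios of 3.35 and 2.56 with vector and of 3.43 and 2.05 with FLII overexpression, so the fractions differed in the labelled direction. The mesenchymal marker VIM was abundant in all 4 libraries, at 1424 to 3251 CPM. ZEB1 and CDH2, also mesenchymal markers, were not among the genes kept, at 1.92 to 7.62 CPM and 4.32 to 34.0 CPM. All 3 were lower in CPM in FLII overexpression cytosol than in vector cytosol. One library stood apart. Transcripts typical of epithelial cells, most of them scarce in the other H1299 libraries, were higher in FLII overexpression cytosol, where KRT17 had 448 reads against 43 in vector cytosol and KRT5 had 145 against 10. All 12 epithelial markers were higher in CPM in that library than in vector cytosol, and 7 of 12 were higher in FLII overexpression nuclear than in vector nuclear RNA. Their summed level was 63.5 CPM in vector cytosol, 216 in FLII overexpression cytosol, 238 in vector nuclear and 230 in FLII overexpression nuclear RNA. Without LAMB3, the only one among the genes kept, it was 15.8, 155, 21.8 and 25.8 CPM in the same order. None of the 12 was at 0 in either cytosol library, 3 were at 0 in vector nuclear and 1 in FLII overexpression nuclear RNA. The limit on HBE levels removed 164 genes, whose median change was -0.28. Why these markers were higher in that library was not tested. Whether it holds RNA from another line, and whether such RNA affects other changes, was not tested either. With 1 library per group, no difference below has a replicate check, and the 95% intervals cover counting error only.

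The change varied mainly with the base composition of the transcript. Middle parts of the coding sequences of 7 genes are shown as examples of both ends, with G and C in capitals. The sequences are from the GENCODE 29 transcripts of build GRCh38, written 5′ to 3′ as DNA, each 150 bases long, taken from the middle of the coding sequence. The genes are the leading ones of their direction for which composition was most visible, and were chosen after their values were seen. CAPZA2 (chromosome 7, coding bases 355 to 504), C6orf211 (chromosome 6, coding bases 586 to 735) and FBXO30 (chromosome 6, coding bases 1042 to 1191) were called higher, as defined below. G and C make up 38.7%, 35.3% and 39.3% of these stretches.
CAPZA2: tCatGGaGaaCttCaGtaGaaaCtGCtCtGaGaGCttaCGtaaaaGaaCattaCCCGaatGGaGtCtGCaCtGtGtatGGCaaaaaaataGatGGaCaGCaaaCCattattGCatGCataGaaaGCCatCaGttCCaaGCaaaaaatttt
C6orf211: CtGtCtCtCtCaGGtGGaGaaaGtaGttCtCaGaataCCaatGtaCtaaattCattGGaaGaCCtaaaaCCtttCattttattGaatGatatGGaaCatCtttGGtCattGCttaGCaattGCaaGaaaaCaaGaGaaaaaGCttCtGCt
FBXO30: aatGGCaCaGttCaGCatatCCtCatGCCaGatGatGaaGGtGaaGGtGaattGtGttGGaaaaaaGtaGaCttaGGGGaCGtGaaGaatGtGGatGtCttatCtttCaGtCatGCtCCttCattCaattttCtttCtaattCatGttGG

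CHTF18 (chromosome 16, coding bases 1387 to 1536), ADAT3 (chromosome 19, coding bases 475 to 624) and ARID5A (chromosome 2, coding bases 817 to 966) were called lower. Their stretches hold 68.7%, 74.7% and 67.3% G and C.
CHTF18: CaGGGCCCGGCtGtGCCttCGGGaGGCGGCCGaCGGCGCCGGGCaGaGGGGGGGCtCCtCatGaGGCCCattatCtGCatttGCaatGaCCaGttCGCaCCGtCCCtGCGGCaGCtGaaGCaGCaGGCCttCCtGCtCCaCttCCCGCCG
ADAT3: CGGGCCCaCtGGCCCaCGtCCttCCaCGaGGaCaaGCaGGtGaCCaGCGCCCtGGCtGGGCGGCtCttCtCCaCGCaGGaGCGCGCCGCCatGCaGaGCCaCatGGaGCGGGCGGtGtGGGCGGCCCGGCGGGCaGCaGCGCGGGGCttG
ARID5A: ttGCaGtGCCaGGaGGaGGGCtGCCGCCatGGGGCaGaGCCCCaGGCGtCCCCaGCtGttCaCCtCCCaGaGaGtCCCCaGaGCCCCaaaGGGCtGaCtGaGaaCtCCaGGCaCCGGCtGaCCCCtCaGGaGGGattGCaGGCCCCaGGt

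PTBP1 (chromosome 19, coding bases 760 to 909) is shown as a GC-rich transcript that was called higher, 1 of the 4 such genes in the upper 2 of the 5 GC classes. The stretch has 59.3% G and C.
PTBP1: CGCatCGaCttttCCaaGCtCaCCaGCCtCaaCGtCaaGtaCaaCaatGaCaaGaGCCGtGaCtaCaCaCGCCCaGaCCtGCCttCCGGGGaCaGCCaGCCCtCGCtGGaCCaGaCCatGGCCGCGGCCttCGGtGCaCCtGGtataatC

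Over all 8048 genes the median change was -0.06 and the quartiles were -0.27 and 0.25. The zero of this scale depends on how the libraries are scaled. With total counts in place of TMM factors the median was 0.09, and with the size factors of DESeq2 it was -0.15. Changes are therefore best read against the median of all genes and not against 0. In bulk RNA, a change in some of the cells and a smaller change in every cell cannot be told apart.

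Genes were divided into 5 equal classes by the GC content of the whole transcript, which was known for 7996 genes. In the lowest class, with a GC content of 32.0% to 42.8%, the median change was 0.41 (quartiles 0.17 and 0.68), and 88.0% of the genes were above 0. The next classes had medians of 0.13, -0.10 and -0.21. In the highest class, with a GC content of 60.0% to 74.5%, the median was -0.25 (quartiles -0.36 and -0.12), and 12.7% of the genes were above 0. The order of the 5 medians thus followed GC content throughout, and the quartiles of the lowest and the highest class did not overlap. The difference lay more in the cytosol than in the nuclei. The median log2 fold of FLII overexpression over vector rose over the GC classes from -0.37 to 0.13 in cytosol RNA, and went from 0.05 to -0.11 in nuclear RNA. In whole-cell mRNA of the same cells the medians ran only from -0.03 to 0.04.

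**Figure D1:**
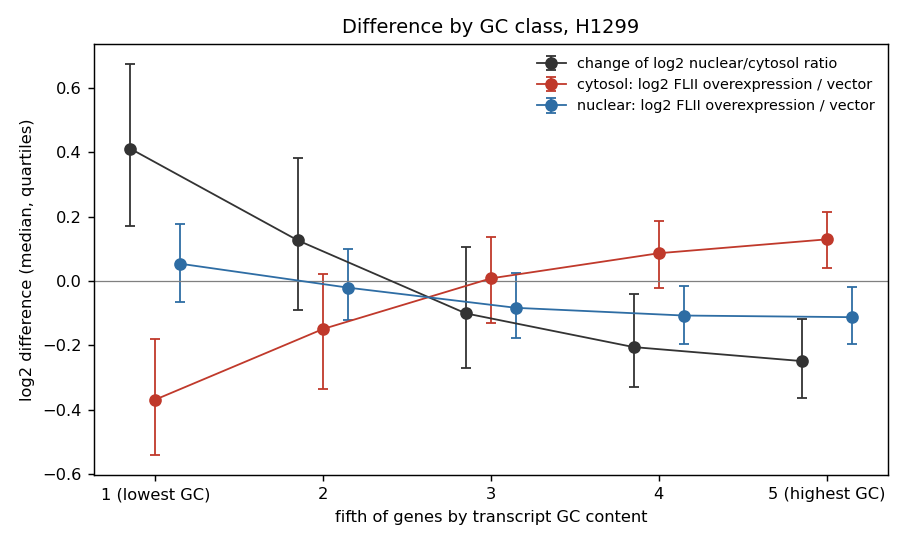
Median and quartiles of log2 differences for the 5 GC classes of the genes kept in H1299: the change of the nuclear over cytosol ratio (black), the cytosol fold (red) and the nuclear fold (blue), FLII overexpression over vector. The change goes from 0.41 in the lowest to -0.25 in the highest class, with the cytosol fold running opposite.

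The same is seen in the reads of each library. Genes of the lowest GC class took 6.24% of the reads on the kept genes in vector cytosol and 4.91% in FLII overexpression cytosol. In nuclear RNA they took 9.77% with vector and 10.5% with FLII overexpression. Genes of the highest class took 28.8% and 30.4% in the cytosol libraries, and 20.2% and 19.7% in the nuclear libraries. Cytosol RNA was thus already poor in these low-GC transcripts with vector, and was poorer with FLII overexpression. The HBE cytosol libraries had 3.23% with NC and 3.21% with FLII knockdown for the lowest class, so the 2 HBE libraries were closer to each other than the 2 H1299 libraries.

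**Figure D2:**
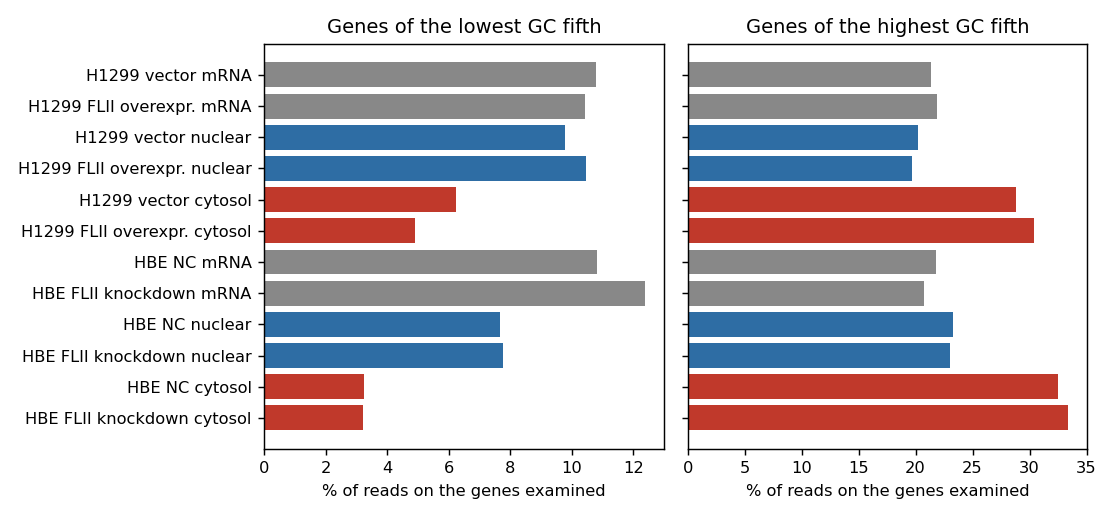
Share of the reads on the kept genes, in percent, that fell on the lowest GC class (left) and on the highest GC class (right) in 12 libraries, coloured by fraction (grey mRNA, blue nuclear, red cytosol). Cytosol libraries are lowest on the left, at 6.24% and 4.91% in H1299 and 3.23% and 3.21% in HBE.

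Across genes, Spearman's correlation of the change with transcript GC content was -0.61 over 7996 genes. Genes are not independent replicates, and all points share the same 4 libraries. By region of the transcript, the correlation was -0.58 for the 3′ untranslated region (7324 genes), -0.52 for the coding sequence (7483 genes), -0.54 for the third codon position (7475 genes) and -0.11 for the 5′ untranslated region (6633 genes). The cytosol fold had a correlation of 0.61 with GC content, the nuclear fold -0.34 and the mRNA fold 0.20. The relation of composition and localisation was present without FLII overexpression as well, since the vector ratio itself had a correlation of -0.48 with GC content. With FLII overexpression it was -0.66, and in HBE with NC it was -0.60 over 5845 genes.

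Longer transcripts also had higher changes, but much of this went with their lower GC content. By the stated length, the 5 classes from the shortest (156 to 1620 bases) to the longest (4887 to 91671 bases) had medians of -0.18, -0.13, -0.07, 0.03 and 0.12. The median GC content was 53.8% in the shortest and 46.8% in the longest class. After the trend with GC content was subtracted, the shortest class stood at -0.07 and the longest at 0.03, and the correlation with length was 0.13 in place of 0.26. Within the lowest GC class the medians by length were 0.26, 0.42, 0.43, 0.46 and 0.41, and within the highest they were -0.29, -0.26, -0.24, -0.22 and -0.18. The shortest genes were lowest in each of the 5 GC classes. Coding length had a correlation of 0.02 with the change, the number of exons one of 0.01, and the length of the 3′ untranslated region one of 0.31, which was 0.07 after removal of the GC trend.

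**Figure D3:**
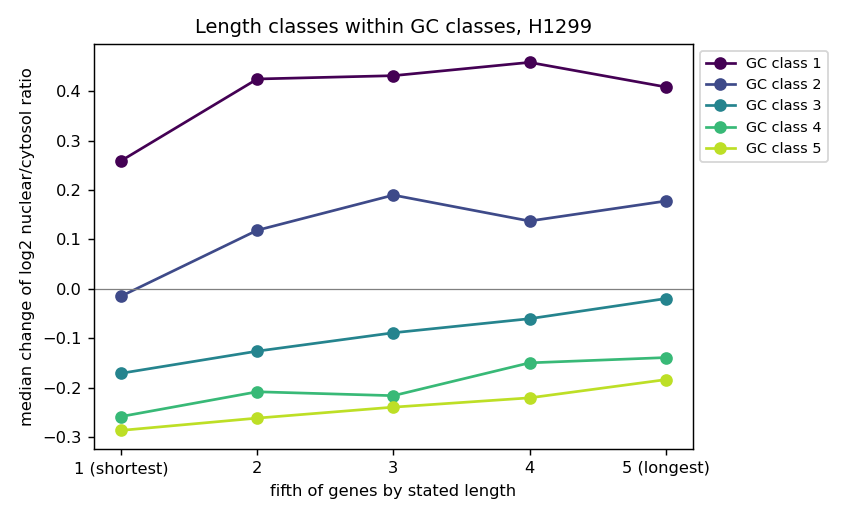
Median change of the log2 nuclear over cytosol ratio by length class (x axis, shortest to longest) within each GC class (lines). The lines are ordered by GC class at every length, and the lowest and highest lines lie farther apart than any line runs along its length. GC classes 4 and 5 lie close together, at -0.26 and -0.29 for the shortest and -0.14 and -0.18 for the longest genes.

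The AU-rich motif TATTTAT, searched on the transcript strand of the 3′ untranslated region, is a sequence of the kind bound by mRNA decay factors. The 2085 genes that contain it had a median change of 0.14, and the 5239 genes without it had -0.12. Within GC classes the difference was smaller: 0.44 with and 0.39 without the motif in the lowest class, 0.13 for both in the next, and -0.21 and -0.25 in the highest. Genes with coding (NM) and noncoding (NR) accessions had medians of -0.06 and -0.05.

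A gene was called when its change was at least 1 on the log2 scale, that is 2-fold, and its interval excluded 0. By this rule 154 genes were higher (1.91% of the 8048) and 13 were lower (0.162%). Every one of the 154 had a lower level in FLII overexpression cytosol than in vector cytosol, and 152 had a higher level in FLII overexpression nuclear RNA. These signs follow largely from the rule for a call and are not a separate result. The cytosol fold was larger in size than the nuclear fold in 140. Within single fractions fewer genes passed the same limits: 3 higher (0.0373%) and 35 lower (0.435%) in cytosol, 3 higher (0.0373%) and 0 lower (0%) in nuclear RNA, and 4 higher (0.0497%) and 3 lower (0.0373%) in mRNA. FLII was among those higher in cytosol and in nuclear RNA, beside RNA5-8S5 in cytosol and CES5A in nuclear RNA, among others. Of the 154 genes, 30 were also called lower in cytosol alone. Their median log2 fold was -0.84 in cytosol, 0.38 in nuclear RNA and -0.03 in whole-cell mRNA, and their median ratio went from -0.21 with vector to 0.98 with FLII overexpression. Of the 153 with a known GC content, 115 were in the lowest GC class, where 7.19% of genes were called higher. Most had few reads: in 146 of the 154 the smaller of the 2 pairs had under 500 reads. The share of calls that were higher was 92.2% here, 98.4% with total counts, 78.6% with DESeq2 size factors and 69.6% after removal of the GC trend.

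PTBP1, a splicing repressor of the hnRNP family, had the most reads of the named genes and so the narrowest interval. It had 70071 reads in vector cytosol and 24320 in FLII overexpression cytosol, 42608 in vector nuclear and 62026 in FLII overexpression nuclear RNA. It was lower in cytosol and higher in nuclear RNA, and its change was 1.32 (95% interval 1.29 to 1.35). Its transcript has a GC content of 58.8%, and its CPM in the 4 libraries was above that in H1299 mRNA by 2.99 on the log2 scale. TRA2A, a splicing activator of the SR-like family, had 124 and 33 reads in the cytosol and 115 and 163 in the nuclear libraries, vector first. Its change was 1.65 (1.00 to 2.30).

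PAPD4, a cytoplasmic poly(A) polymerase, had the largest change of those called higher. Its reads were 91 and 18 in cytosol and 60 and 111 in nuclear RNA, vector first, a change of 2.45 (1.60 to 3.30). DCP2, the mRNA decapping enzyme, had 129 and 42 reads in cytosol and 94 and 107 in nuclear RNA, a change of 1.05 (0.41 to 1.69). These low counts leave intervals more than 1 log2 unit wide. NUP54, a subunit of the nuclear pore, had 121 and 48 reads in cytosol and 123 and 172 in nuclear RNA, a change of 1.06 (0.48 to 1.65).

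Among the 75 kept genes of the actin cytoskeleton list, 1 was called higher (1.33%, beside 1.91% of all genes). This was CAPZA2, a subunit of the capping protein that blocks filament ends. It had 460 and 138 reads in cytosol and 198 and 312 in nuclear RNA, vector first, and its change was 1.64 (1.26 to 2.01). It was lower in one fraction and higher in the other. MTPN, which binds capping protein, is not in this list. It had 659 and 224 reads in cytosol and 248 and 347 in nuclear RNA, a change of 1.29 (0.97 to 1.61). With the GC trend removed, the changes of CAPZA2 and MTPN were 1.27 and 0.84. ITGB1, an integrin chain at cell adhesions, was not called, at 0.45 (0.25 to 0.64). The family of FLII held LRRFIP1, a binding partner, at 0.47 (0.22 to 0.72) and GSN, gelsolin, at -0.24 (-0.38 to -0.09), neither of them called.

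Of 120 ubiquitin ligase and cullin genes kept, 5 were called higher (4.17%, beside 1.91% of all genes) and 0 lower (beside 0.162%). FBXO30, FBXO11 and FBXO33 encode F-box proteins, the substrate receptors of cullin ligases, and had changes of 1.75 (0.96 to 2.53), 1.19 (0.49 to 1.89) and 1.10 (0.56 to 1.64). RNF138 and RNF146 encode RING-type ligases and had 1.13 (0.43 to 1.83) and 1.07 (0.31 to 1.83). FBXO30 shows the pattern of reads, with 91 and 26 in cytosol and 57 and 93 in nuclear RNA, vector first. All 5 had a GC content under 45%, from 34.8% in FBXO30 to 44.7% in FBXO33, and the list as a whole had a median of -0.00 and a spread on both sides, with RNF123 at -0.71.

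Other called genes with known roles were ATRX, a chromatin remodeller, NARS, the cytosolic asparaginyl-tRNA synthetase, NFE2L2, the transcription factor NRF2 of the oxidative stress response, and RB1, the retinoblastoma protein. ATRX had 108 and 28 reads in cytosol and 225 and 322 in nuclear RNA, vector first, a change of 1.70 (1.06 to 2.35). NARS had 322 and 99 in cytosol and 527 and 618 in nuclear RNA, a change of 1.18 (0.81 to 1.54). NFE2L2 had 141 and 48 in cytosol and 85 and 127 in nuclear RNA, a change of 1.38 (0.76 to 1.99). RB1 had 89 and 39 in cytosol and 53 and 88 in nuclear RNA, a change of 1.16 (0.43 to 1.89). In each of these the CPM was lower in cytosol and higher in nuclear RNA after FLII overexpression. Further called genes were NBN and XRCC4 of DNA repair at 1.50 and 1.13, PMAIP1, a pro-apoptotic p53 target, at 1.04, CEP170 of the centrosome at 1.19, KIF16B, a kinesin, at 1.26, SLC30A6, a zinc transporter, at 1.02, and the zinc finger genes ZNF367 and ZNF639 at 1.41 and 1.32.

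**Figure D4:**
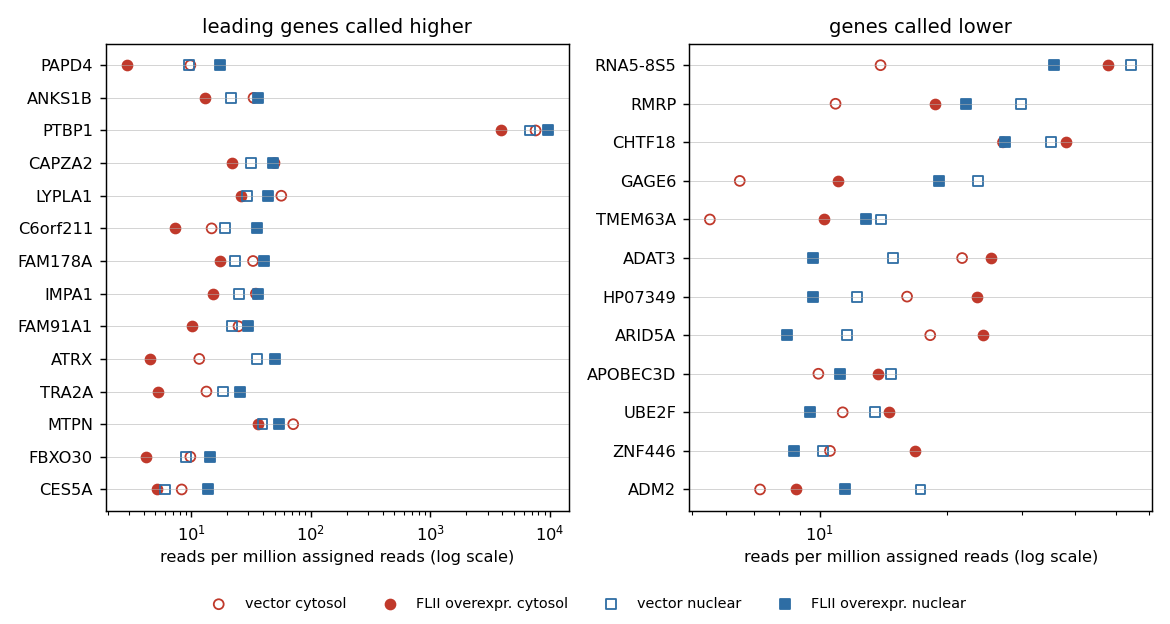
CPM (reads scaled to the library total) on a log axis in the 4 H1299 libraries for 14 of the leading genes called higher (left) and 12 genes called lower (right); open symbols are vector, filled symbols FLII overexpression, red circles cytosol and blue squares nuclear. On the left the filled red circle lies left of the open one in 14 of 14 genes, and the filled blue square right of the open one in 14 of 14. The rule for a call favours this order.

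The 13 genes called lower had a median log2 fold of 0.62 in cytosol and -0.47 in nuclear RNA, with 13 of 13 higher in cytosol and 13 of 13 lower in nuclear RNA after TMM scaling. The rule for a call favours these signs too. Their median GC content was 63.1%, and 7 of the 11 with a known value were in the highest GC class. RNA5-8S5, the 5.8S ribosomal RNA, which has no poly(A) tail, had 129 reads in vector cytosol and 300 in FLII overexpression cytosol, 343 in vector nuclear and 230 in FLII overexpression nuclear RNA, a change of -2.54 (-2.92 to -2.16). RMRP, the RNA of the RNase MRP complex, likewise without a poly(A) tail, had 101 and 117 reads in cytosol and 188 and 143 in nuclear RNA, vector first, a change of -1.35 (-1.85 to -0.86). In both the cytosol CPM was higher and the nuclear CPM lower.

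CHTF18, a clamp loader subunit, had 251 and 238 reads in cytosol and 222 and 176 in nuclear RNA, vector first, a change of -1.01 (-1.39 to -0.62). ADAT3, a tRNA deaminase subunit, had 201 and 159 in cytosol and 94 and 62 in nuclear RNA, a change of -1.01 (-1.56 to -0.46). ARID5A, an RNA-binding protein that stabilises inflammatory mRNAs, had 169 and 152 in cytosol and 73 and 54 in nuclear RNA, a change of -1.03 (-1.62 to -0.43). The FLII overexpression cytosol library had fewer reads than the vector cytosol library, so raw cytosol reads of these genes fell while the scaled level rose. Their raw nuclear reads also fell, with 6295282 reads in the vector and 6434358 in the FLII overexpression nuclear library. Further genes called lower were GAGE6, TMEM63A, HP07349, APOBEC3D, UBE2F, ZNF446 and ADM2, from -1.22 to -1.02; GAGE6 belongs to a family of near-identical copies between which reads cannot be assigned with certainty.

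Gene lists by function were compared by their medians, beside the median of -0.06 over all genes. Of 39 lists, 36 had at least 5 genes kept. Their medians ran from -0.31 to 0.22, with 20 below and 16 above the median of all genes, and 19 lay within 0.1 of it. After the GC trend was removed, 25 of 36 lay within 0.1 of the median of all genes. No list had more than 5 called genes.

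Ribosomal proteins of the cytosol lay lowest among the larger lists. All 79 listed genes were kept, and none was called in either direction, beside 1.91% of all genes higher and 0.162% lower. The median was -0.28 (quartiles -0.39 and -0.14), with 67 of 79 below the median of all genes. Their median log2 fold was 0.15 in cytosol and -0.14 in nuclear RNA, beside -0.01 and -0.06 over all genes. The small subunit had a median of -0.30 (31 genes) and the large subunit -0.28 (46 genes). RPL23A, with 4004 and 3547 reads in cytosol and 4601 and 4180 in nuclear RNA, vector first, had the lowest change at -0.71 (-0.80 to -0.63). Their median GC content was 49.8%, beside 51.6% for all genes. Within the second GC class, 27 of 28 ribosomal protein genes were below the class median of 0.13, and within the third, 22 of 24 were below -0.10. The list had a median length of 741 bases, within the shortest length class. Genes of that length class had medians of -0.01 in the second GC class and -0.17 in the third. The ribosomal protein genes had -0.17 and -0.35 in these GC classes. How much of the distance goes with length was not tested. With the GC trend removed the median of the ribosomal protein genes was -0.24. Scaled by total counts it was -0.13, beside 0.09 for all genes.

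Nuclear-encoded genes of oxidative phosphorylation also lay low, at a median of -0.17 over 77 genes, and at -0.17 with the GC trend removed. None of the 77 was called, beside 1.91% of all genes higher and 0.162% lower. The median length of the list was 921 bases. SDHA, the flavoprotein subunit of complex II, was lowest at -0.87 (-1.09 to -0.65), and NDUFB5 of complex I was highest at 0.90 (0.56 to 1.23). Host genes of small nucleolar RNAs had a median of -0.19 over 17 genes and -0.20 with the trend removed. Their median length was 1118 bases. Mitochondrial ribosomal proteins had -0.17 over 72 genes, but -0.07 with the trend removed. Lysosomal genes had -0.19 over 46 genes, with CTSZ, a cathepsin, at -0.74, and -0.13 with the trend removed. Chains of collagens, laminins and integrins had -0.30 over 16 genes, and -0.07 with the trend removed. NF-kB chemokines and regulators had -0.25 over 16 genes, and -0.08 with the trend removed. These last lists consist of GC-rich genes, with median GC contents of 58.4% and 55.7%.

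On the other side, the p53 and RB pathway had a median of 0.22 over 20 genes, and 0.23 with the GC trend removed, with RB1 and PMAIP1 called higher and BBC3, a p53 target with a GC content of 69.7%, at -0.70. Kinesins and dyneins, the microtubule motors, had 0.18 over 28 genes and 0.07 with the trend removed. Rab GTPases, which direct vesicle traffic, had 0.17 over 34 genes and 0.05 with the trend removed. Genes of the cell cycle and DNA replication had 0.15 over 55 genes, and 0.00 with the trend removed. None of the 55 was called, beside 1.91% of all genes higher and 0.162% lower. CDK1, the mitotic kinase, was highest there at 0.84 (0.49 to 1.19), and MCM3, of the replicative helicase, lowest at -0.50.

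Genes of RNA processing itself had medians close to that of all genes, and their shares called higher are read against 1.91% of all genes. Spliceosome, SR and hnRNP genes had a median of 0.02 over 68 genes with 2 called higher (2.94%). Genes of mRNA export and the nuclear pore had -0.08 over 45 genes with 1 called higher (2.22%) and THOC5, of the TREX complex, lowest at -0.51. Genes of mRNA decay and the poly(A) tail had 0.01 over 49 genes with 2 called higher (4.08%) and PARN, a deadenylase, lowest at -0.74. Actin cytoskeleton genes had 0.02 over 75 genes with 1 called higher (1.33%).

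**Figure D5:**
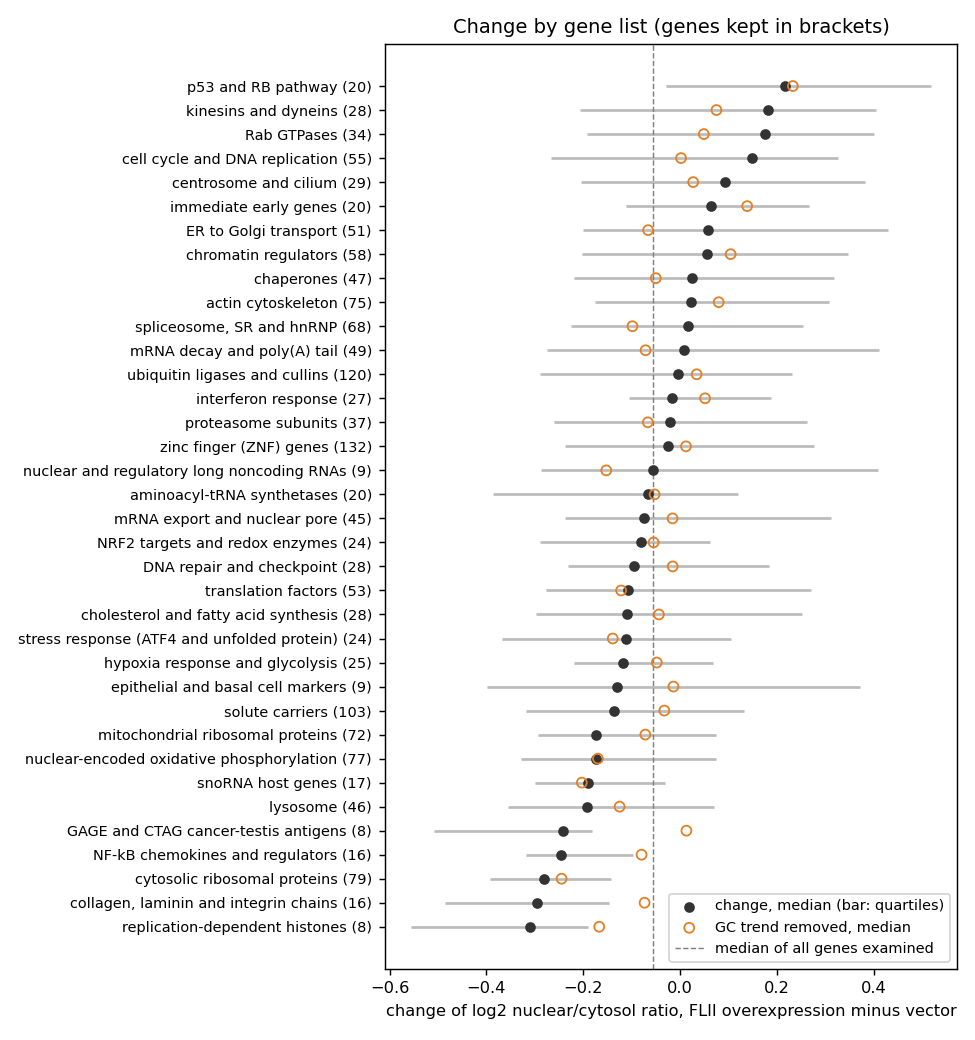
Median change of the log2 nuclear over cytosol ratio for the 36 lists with at least 5 genes kept (black points, bars are quartiles), the median after removal of the GC trend (orange circles) and the median of all genes (dashed line, -0.06). Most quartile bars cross the dashed line, and cytosolic ribosomal proteins stay low in both versions, at -0.28 and -0.24.

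The same genes were examined in HBE, where FLII was knocked down. Of the kept genes, 5866 also had 100 reads in both HBE pairs. Of these 5866 genes, 2 were called higher (0.0341%) and 0 lower (0%) in HBE by the same rule. In H1299, 40 of the 154 genes called higher and 8 of the 13 called lower were among the 5866. The median HBE change was 0.05 in the lowest and -0.06 in the highest GC class, a smaller range than in H1299 and in the same order at its ends. The correlation of the HBE change with GC content was -0.24, and the correlation between the changes in the 2 lines was 0.09 over 5866 genes, or -0.04 with the GC trend removed from the H1299 change. Of the 154 genes called higher in H1299, 40 had enough reads in HBE, where their median change was -0.10, with 15 of 40 above 0 and 0 called. Overexpression and knockdown are opposite treatments in different cells, and the difference between the lines was not tested.

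The edges of the limits on reads and lines were examined. Genes whose smaller pair had 100 to under 110 reads had a median change of 0.22 (257 genes, 24 called higher and 0 lower). Those just left out with 90 to under 100 reads also had 0.22 (299 genes, 31 called higher and 3 lower). Over all genes kept the median was -0.06, and 1.91% were called higher and 0.162% lower. Genes with few reads thus lay above the median of all genes on both sides of this limit. Genes at 4 to under 5 times the H1299 level in HBE mRNA had a median of -0.05 (53 genes), and those just left out at 5 to under 6 times had -0.28 (27 genes).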

How the data were processed

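Counts of polyA RNA from cytosol and nuclei of H1299 cells (4 libraries, 1 per group) were compared, with mRNA of H1299 and mRNA, cytosol and nuclear RNA of HBE beside them. Libraries were assigned by their titles, and the NEBNext mRNA kit is named in the labels' protocols. Read count, RPKM and length per RefSeq gene are the columns per the file headers. The authors' counts are whole numbers. The deposited RPKM values were used only in 1 alternative. The submitters' processing notes name the builds GRCh37 and hg19. The aligner, the counting tool and how the fractions were separated were not given in the sources used here.

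TMM factors from edgeR 4.0.16 (R 4.3.3) scaled the 4 libraries together, every scaled count was raised by 0.5, and log2 ratios were subtracted. The 95% interval comes from the inverse counts. A gene was called at an absolute log2 change of 1 with an interval that excludes 0. As each group has 1 library, there is no p-value, and PCR duplicates cannot be seen in counts. Folds within 1 fraction were called by the same limits. GC content came from GENCODE 29 transcripts (GRCh38), matched by RefSeq accession for 96.3% of the genes kept and by symbol for others. As this is another build, no coordinates are given. The GC trend was removed with a lowess curve (fraction 0.3, statsmodels 0.14.6). The calls were tested on simulated data that held counting error only, so the check does not cover variation between replicates. The lowess step was not tested.

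The genes, classes and lists were chosen with earlier results of these data known. Genes named are FLII, the 15 in each direction with the interval bound farthest from 0, up to 4 called genes per list or else its highest and lowest gene, and cell type markers. The sequences shown, and the genes in Other observations, were chosen after their values were seen. Some genes that the rule names are not reported here. Alternatives changed the scaling, the added reads, the read minimum, the limit on HBE levels, the unit and the GC trend.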

Additional observations from a re-analysis of the deposited data

How the results depend on the processing

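The direction of the GC classes held under each alternative except removal of the GC trend, which takes the classes to 0 by construction, and none of the 45 called genes compared one by one reversed under an alternative that kept it. Genes called higher (154) numbered 309 with total counts, 92 with DESeq2 size factors, 432 with at least 20 reads, 474 with at least 1 read, 8 with at least 500 reads, 94 with the deposited RPKM and 39 with the GC trend removed. Genes called lower (13) numbered 5 with TMM within each pair, 5 with total counts, 25 with DESeq2 size factors, 5 with 5 reads added, 93 with at least 20 reads, 124 with at least 1 read, 0 with at least 500 reads, 22 without the limit on HBE levels and 3 with RPKM. All 154 remained among those called higher with total counts, and 92 with DESeq2 size factors. With the GC trend removed, 29 of the 154 remained among those called higher, and 17 were called lower, of which 3 were among the 13.

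Medians of the lowest and highest GC class and of the shortest and longest length class, in that order, were 0.45, -0.21, -0.14 and 0.16 with TMM within each pair, 0.56, -0.10, -0.0332 and 0.27 with total counts, 0.32, -0.34, -0.28 and 0.0256 with DESeq2 size factors, 0.34, -0.26, -0.22 and -0.0202 with at least 500 reads, 0.45, -0.0928, -0.0325 and 0.20 with RPKM, and -0.00178, -0.0108, -0.0707 and 0.0252 with the GC trend removed. With at least 20 reads the length classes had -0.16 and 0.15. With at least 1 read they had -0.15 and 0.16, and the highest GC class -0.24. The longest class was thus below 0 with at least 500 reads, where 422 genes remain in it. The number of lists below the median of all genes was 15 to 24. In an alternative chosen after seeing the data, 161 genes with 4-fold or more excess over mRNA were left out, which gave 145 higher and 12 lower. No paired analysis was possible because each group has 1 library and the labels give no replicate that links them; leaving out a replicate was not possible for the same reason. Of the 154 genes called higher, 146 had under 500 reads in the smaller pair.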

Other observations

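A set of 161 genes had a mean CPM in the 4 cytosol and nuclear libraries 4-fold or more above that in H1299 mRNA. In the mRNA libraries several of them were nearly absent. CALHM3, a calcium channel gene, had 0 and 0 reads in mRNA, but 317 and 142 in cytosol and 232 and 344 in nuclear RNA, vector first, and a change of 0.97 (0.60 to 1.35). LRRC10, a heart muscle gene, also had 0 and 0 reads in mRNA, with 253 and 101 in cytosol and 199 and 265 in nuclear RNA, and a change of 0.98 (0.56 to 1.41). TBX19, a pituitary transcription factor, had 6 and 6 reads in mRNA, with 899 and 408 in cytosol and 563 and 761 in nuclear RNA, and a change of 0.82 (0.59 to 1.05). ATP1A4, a sodium pump subunit of sperm, had 0 and 0 reads in mRNA, with 241 and 131 in cytosol and 197 and 264 in nuclear RNA, and a change of 0.55 (0.14 to 0.96).

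The median change of these 161 genes was 0.05, at a median GC content of 51.9%, beside -0.06 for the other 7887 genes at 51.6%. Of the 161, 9 were called higher (5.59%) and 1 lower (0.621%). Of the other genes 1.84% were called higher, and of all genes kept 0.162% were called lower. Among the 9 were PTBP1, ANKS1B, CES5A, RNF126P1, NXPE1, C5orf49, LOC147646 and LOC649395. RPL23P8, a pseudogene copy of a ribosomal protein gene, had 1 and 6 reads in mRNA, 1012 and 671 in cytosol and 966 and 972 in nuclear RNA, and a change of -0.15 (-0.34 to 0.04). PPIAL4F, which has near-identical copies, had 1 and 0 reads in mRNA, 402 and 327 in cytosol and 457 and 434 in nuclear RNA, and a change of -0.53 (-0.81 to -0.24). Reads of such copies cannot be assigned with certainty.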
